A study of Homo sapiens with 18 samples.

Results

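The 60S ribosomal proteins are the proteins of the large subunit of the cytosolic ribosome, the subunit that forms the peptide bond and holds the tunnel through which the new chain leaves. The 41 genes described here were taken by symbol from a list of large-subunit proteins that leaves out genes with an expressed paralog. All 41 were found among the 17017 genes of the deposited table, and all 41 passed the filter on low counts in RNA, in footprints and in the joint fit. No measured value enters the rule that chose them, but members and lists were chosen with earlier results of these data known. They were measured in MDA-MB-231, an established triple-negative breast carcinoma line, after lentiviral expression of a scramble hairpin (SC) or of a hairpin against fibrillarin (SH2 or SH3). Fibrillarin (FBL) is the nucleolar methyltransferase that box C/D small nucleolar RNAs guide to 2'-O positions of ribosomal RNA. Cells of all 3 treatments were transduced, kept under puromycin and given cycloheximide, which holds ribosomes on mRNA, shortly before lysis. No cloning step is described, and the protocol's first and second knockdown are not matched to SH2 and SH3 in the labels. Each treatment has 3 libraries of cytoplasmic input RNA (labelled IN, called RNA here) and 3 of ribosome footprints (labelled RPF), 18 libraries in all.

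Large-subunit proteins are made in the cytoplasm, imported into the nucleus and built onto ribosomal RNA in the nucleolus, and a few join only after export. Their mRNAs are among the most abundant of a growing cell and carry a terminal oligopyrimidine (TOP) motif, a cytosine at the cap followed by an unbroken run of C and U, through which mTORC1 and LARP1 set their translation as a group. Many of their genes also hold small nucleolar RNAs (snoRNAs) in introns.

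The start of each gene is shown first, because the TOP motif is the sequence feature these mRNAs share. RefSeq (GRCh38.p14) promoter entries were matched for 34 of the 41 genes, and the entries for RPL5, RPL7, RPL8, RPL23, RPL23A, RPL30 and RPL37 were not matched. Each window below has 24 bases on the transcribed strand, 5′ to 3′: 8 bases before the annotated start and 16 from it. Capitals mark the longest unbroken run of C and T. The first group was chosen because its members carry changes described below and have a run at the start. That run has at least 5 pyrimidines and begins with a C within 3 bases of the start. For RPL24 the only change that passed the tests below is an RNA fall in SH2.
RPLP2: ggcgCCTTCCTTTTCCTCCCTgtc (chr11:809959-809982, plus strand)
RPL35: cctaCTTCCTCTTTCCCTCggagc (chr9:124861942-124861965, minus strand)
RPL24: gaTTCTCTCTTTCTTTTCgccatc (chr3:101686703-101686726, minus strand)
RPL31: ttcgcgCTCTTCCTTTCCaacttg (chr2:101002281-101002304, plus strand)
RPL34: TTTTTCTTCCTCTTCCggggacgt (chr4:108620568-108620591, plus strand)
RPL18: cccgTTCTCTCTTTCCggacctgg (chr19:48619163-48619186, minus strand)
RPLP0: cgcgaggCCCTTCTCTCgccaggc (chr12:120201096-120201119, minus strand)
RPL38: gtctcgTTCTTTTTCgtccttttc (chr17:74203670-74203693, plus strand)
RPL41: tcgCCTTTCTCTCggccttagcgc (chr12:56116625-56116648, plus strand)
No run that begins with C within 3 bases of the annotated start was found in RPL4, RPL6, RPL9, RPL10, RPL11, RPL19 and RPL27. The second group shows those of them picked for high values below. RPL9, RPL11 and RPL27 are not shown, and RPL27 has low values below.
RPL6: aTCCTCagtgaatcagaaccagaa (chr12:112411427-112411450, minus strand)
RPL19: TCCCCTTCgcagataatgggagga (chr17:39200275-39200298, plus strand)
RPL4: ggagtggtaagcaCTTCCTTTTCC (chr15:66504840-66504863, minus strand)
RPL10: aCTCTCagaaatatacgtctgtca (chrX:154398057-154398080, plus strand)
A run of at least 5 pyrimidines that begins with a C within 3 bases of the annotated start was found, on the transcribed strand alone, in 24 of 34 members (70.6%), against 13.6% of 15843 protein-coding promoters with a window of this length. With a minimum run of 8, the shares were 41.2% (14 members) and 4.69%. A match is a description of these letters. Annotated starts can differ from the starts used in these cells, so a window without a run says nothing about the mRNA made here.

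RNA libraries held 23469830 to 27629488 counts and footprint libraries 1662705 to 6098648. The lowest footprint total was that of SH3 replicate 1, and the next that of SC replicate 2, at 2486598. FBL RNA stood at 395, 349 and 421 CPM in SC, 1.26, 4.52 and 11.2 in SH2 and 3.36, 4.15 and 2.95 in SH3, and FBL footprints at 279.7, 269 and 296 CPM in SC, 5.18, 4.43 and 30.1 in SH2 and 4.10, 5.48 and 8.06 in SH3, so both hairpin groups lay far under SC in each library. CPM here are edgeR's library-scaled counts, with TMM factors taken within RNA or within footprints. Of the markers fixed for this line, VIM, CD44, CAV1, AXL, EGFR and MET were present in each RNA library, ESR1, PGR and CDH1 were under 1 CPM, and EPCAM was at 4.92 to 9.15 CPM. KRT18, listed among the low markers, was at 469 to 722 CPM and ERBB2 at 79.2 to 104 CPM. Member values rest on 3887 to 176869 counts per library in RNA and on 292 to 13444 in footprints, apart from RPL17 and RPL41. Each of the 41 genes has at least 5 pseudogenes named after it in RefSeq's gene table (median 16, highest 137 for RPL21), of which 0 are in the deposited table. How reads that match several places were counted is not given in the sources used here, so all levels below are uncertain to that extent. All values are relative to the library, so less of an RNA in each cell and fewer cells with it cannot be told apart. Nothing in the labels states that replicates came from separate cultures, and p-values measure the spread between these libraries, which may be technical.

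The 41 genes lost RNA share after both hairpins and kept their footprint share. In SC they took 5.29% ± 0.383 of RNA counts (SD, n = 3), against 3.71% ± 0.0872 in SH2 and 3.91% ± 0.314 in SH3. The SC libraries lay between 5.04% and 5.73% and all hairpin libraries under 4.25%, without overlap. In footprints the shares were 4.09% ± 0.281 in SC, 4.04% ± 0.293 in SH2 and 4.35% ± 0.277 in SH3, and the groups overlapped. RPLP0 alone took 0.618% of SC RNA counts and 0.0718% of SC footprint counts.

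**Figure D1:**
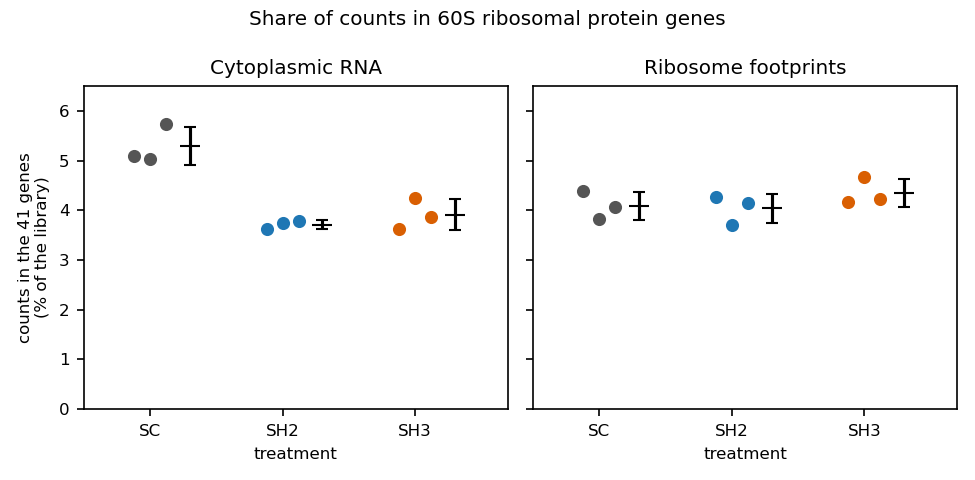
Percentage of each library's counts that fall in the 41 genes (y axis), by treatment, in cytoplasmic RNA (left) and ribosome footprints (right). Points are libraries, and bars give mean ± SD (n = 3). The SC points of RNA lie above all hairpin points, and the footprint points overlap.

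The first comparison asks how the abundance of these mRNAs changed when fibrillarin was depleted. In RNA, 39 of 41 members fell in SH2 and 37 of 41 in SH3, and 0 rose in either (edgeR quasi-likelihood test, adjusted p under 0.05 over all 12710 genes tested). At an unadjusted p under 0.05, and in the DESeq2 Wald test, 0 rose as well. Over all genes tested, 30.4% were called lower and 31.1% higher in SH2, with 25.2% and 27.8% in SH3. Changes are log2 changes against SC throughout, given with the SE where ± follows. The median of the members was -0.66 in SH2 (range -1.33 to -0.20) and -0.56 in SH3 (range -0.91 to -0.21), beside 0.012 and 0.034 over all genes tested. Both hairpins share the SC libraries, and 35 members were called lower against them by both. The share of all genes called lower by both was not taken, and it can be no higher than the 25.2% of SH3. RPL10A and RPL36 were not called in SH2, at -0.21 ± 0.10 and -0.20 ± 0.10. In SH3 the members not called were RPL11, RPL12, RPL19 and RPL24, with log2 changes of -0.26 to -0.21. Leaving out each library in turn gave 34 to 39 members called lower in SH2 and 33 to 41 in SH3.

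The deepest RNA falls in SH2 were in RPL38, RPL29 and RPL31. RPL38, a protein known in mice for its part in translating Hox mRNAs, had RNA at 648, 594 and 689.9 CPM in SC, 218, 294 and 256 in SH2 and 360.4, 439 and 389 in SH3. The SH2 libraries were the lowest, the SH3 libraries lay between and none overlapped. The log2 changes were -1.33 ± 0.12 (SE, adjusted p = 6.76e-07 in edgeR) in SH2 and -0.70 ± 0.12 (SE, adjusted p = 0.000231 in edgeR) in SH3. RNA of RPL29, a small basic protein of eukaryotic large subunits, stood at 965, 898 and 989 CPM in SC, 364, 446 and 389 in SH2 and 557, 643 and 586 in SH3, in the same order and again without overlap. Its log2 changes were -1.25 ± 0.10 (SE, adjusted p = 3.13e-07 in edgeR) for SH2 and -0.67 ± 0.10 (SE, adjusted p = 8.87e-05 in edgeR) for SH3. In SH3 the deepest falls were in RPL34, RPL37A and RPL31, and the smallest changes in RNA were those of RPL12, RPL11 and RPL19. RPL34 RNA was at 683, 659.9 and 768 CPM in SC, 391, 403 and 366 in SH2 and 356, 396 and 371 in SH3, with both hairpin groups at about one level under SC. Its changes were -0.86 ± 0.09 (SE, adjusted p = 3.31e-06 in edgeR) and -0.91 ± 0.09 (SE, adjusted p = 4.20e-06 in edgeR). RPL37A, a zinc-binding protein of the subunit, fell in both groups, with -0.84 ± 0.11 and -0.88 ± 0.11.

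The second comparison asks whether the ribosomes on these mRNAs fell with the RNA. In SH2 footprints 6 members rose, 9 fell and 26 were not called, and in SH3 footprints 4 rose, 7 fell and 30 were not called. Of all 10345 genes tested, 21.0% were called higher and 23.2% lower in SH2, with 16.9% and 19.0% in SH3, so the members' shares of calls lie near or under these. Their median log2 change was -0.037 in SH2 (range -1.13 to 0.55) and -0.0067 in SH3 (range -0.54 to 1.05), beside -0.0042 and -0.014 over all genes tested. The sign of both medians changed when single libraries were left out (-0.080 to 0.039 in SH2 and -0.068 to 0.033 in SH3). Of the members whose RNA fell in SH2, 6 rose in footprints (RPL4, RPL6, RPL11, RPL13A, RPL15 and RPL18), 9 fell (RPL17, RPL27, RPL31, RPL32, RPL35, RPL35A, RPL38, RPL41 and RPLP2) and 24 were not called. In SH3, RNA fell and footprints rose for 3 (RPL6, RPL10A and RPLP0), both fell for 7 (RPL27, RPL30, RPL31, RPL34, RPL37A, RPL38 and RPLP1), and RPL19 rose in footprints with its RNA not called. RPL6 rose and RPL27, RPL31 and RPL38 fell in footprints of both hairpins, which share SC. Shares of all genes in these joint classes were not taken, so the counts are a description.

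Footprint libraries hold fewer counts than RNA libraries. The footprint calls moved with single libraries, and the cause was not tested. In SH2, the members called lower numbered 4 without SH2 replicate 2, 5 without SC replicate 1 and 5 without SH2 replicate 3, and those called higher 4 without SH2 replicate 3. In SH3, 3 were called lower when SC replicate 1 or any SH3 replicate was left out. Those called higher there numbered 1 when SH3 replicate 2 was left out and 2 when SC replicate 3 or SH3 replicate 3 was. Footprint calls that held under each of the 13 alternatives were those of RPL13A, RPL18, RPL35, RPL35A, RPL38 and RPL41 in SH2 and of RPL19 and RPL34 in SH3. RPL29 footprints were not called in SH2, at -0.61 ± 0.26 (SE, adjusted p = 0.0715 in edgeR), and were called lower with the replicate number as a block, with -0.51 and an adjusted p of 0.0125 in edgeR.

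**Figure D2:**
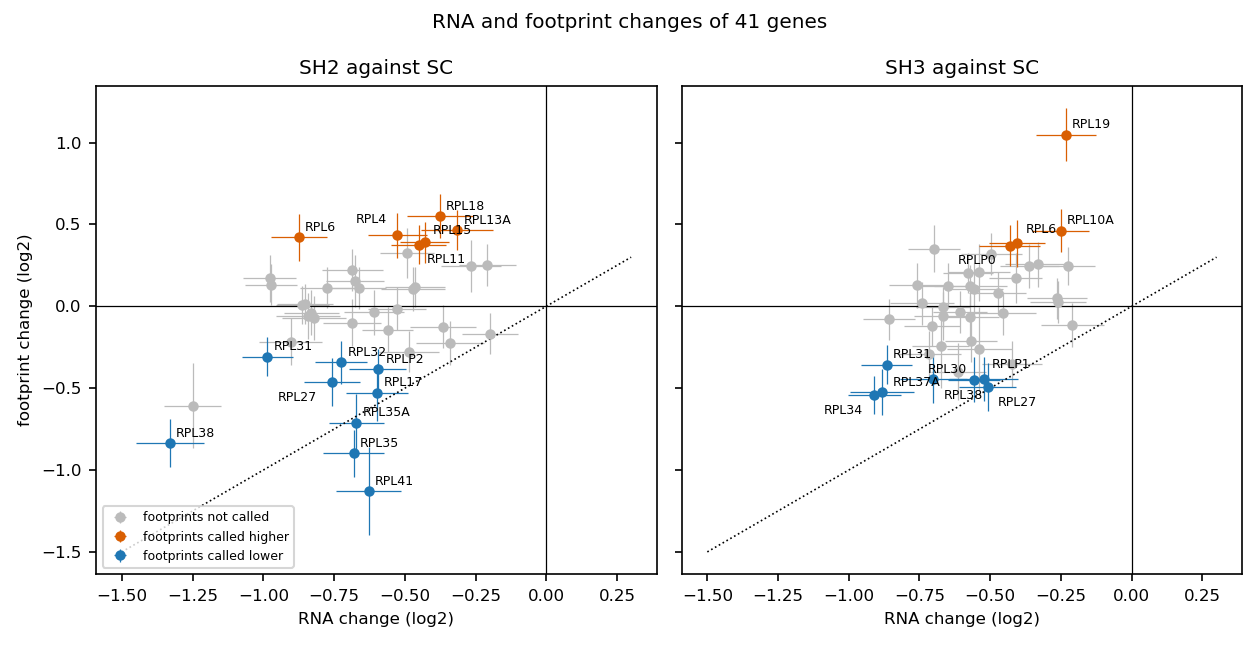
Log2 change in RNA (x axis) and in footprints (y axis) of the 41 genes, for SH2 (left) and SH3 (right) against SC. Points are genes with bars of 1 SE, coloured by the footprint call, and the dotted line marks equal change. All points lie left of 0 in RNA, and in footprints they spread from RPL41 at -1.13 to RPL18 at 0.55 in SH2 and from RPL34 at -0.54 to RPL19 at 1.05 in SH3.

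The third comparison asks whether footprints per RNA, or translational efficiency, changed. It was tested as the footprint change minus the RNA change in 1 fit of all 18 libraries. The ratio rose for 21 of 41 members in SH2 and for 12 of 41 in SH3 by edgeR, and for 26 in SH2 and 26 in SH3 by the DESeq2 Wald test. It fell for 0 in both hairpins by either tool, and for 0 at an unadjusted p under 0.05. At that unadjusted p it was higher for 30 members in each hairpin. Among all 12531 genes tested, edgeR called 1.44% higher and 2.46% lower in SH2, with 0.375% and 0.311% in SH3. No share over all genes was taken for DESeq2 or for the unadjusted p. The counts of 26 and 30 members therefore have no such share beside them. The members' median log2 change was 0.62 in SH2 (range -0.54 to 1.29) and 0.58 in SH3 (range 0.026 to 1.30), beside -0.019 and -0.044 over all genes tested. The estimate was above 0 for 38 of 41 members in SH2 and for 41 of 41 in SH3. Of all 12531 genes tested it was above 0 for 6017 in SH2 and 5660 in SH3. Called higher by both hairpins were 9 members, RPL3, RPL6, RPL7, RPL10, RPL14, RPL15, RPL23A, RPL37 and RPLP0. The share of all genes called higher by both was not taken, and it can be no higher than the 0.375% of SH3. A further 12 were called in SH2 alone, and RPL7A, RPL10A and RPL19 in SH3 alone, which does not show that the hairpins differ. The mean log2 ratio of footprint CPM to RNA CPM over the members was -0.37, -0.42 and -0.58 in the same-numbered libraries of SC, 0.26, -0.013 and 0.13 in SH2, and 0.15, 0.032 and 0.062 in SH3. Per the labels' protocols the input RNA was set aside from each sample's lysate before digestion, but which RNA and footprint libraries share a lysate is not stated. In SC and SH2 the deviations of RNA libraries 1 and 2 from their group mean correlated at -0.49 to -0.30 with those of the footprint library of the same number, and at 0.46 to 0.58 with those of the other of the pair. Ratios per number are therefore a description. Over all 9 pairings of an RNA with a footprint library within a treatment, the mean was -0.64 to -0.27 for SC, -0.013 to 0.26 for SH2 and -0.087 to 0.27 for SH3, so SC lay under both hairpins in any pairing.

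The SH3 count depends on single libraries: it was 1 when SC replicate 3 was left out, 8 for SC replicate 2 and 19 for SC replicate 1, and 3, 2 and 4 for SH3 replicates 1, 2 and 3 in turn. In SH2 the count was 11 without SH2 replicate 3, 12 without SH2 replicate 1, 14 without SC replicate 3 and 18 to 21 without any other. With a replicate block by lysate, taking equal numbers as 1 lysate, 6 were called in SH3 and 19 in SH2. The calls of RPL6, RPL7, RPL10, RPL10A, RPL14 and RPL37 in SH3 and of RPL9 and RPLP0 in SH2 were lost in that fit. In SC and SH2, RNA libraries 1 and 2 correlated with the footprint library of the other number, as given above. This block may therefore join libraries of different lysates there, so its losses are hard to read. Calls that held under each of 13 alternatives were those of RPL4, RPL6, RPL10, RPL11, RPL14, RPL15, RPL18, RPL23A, RPL27A, RPL34 and RPL37 in SH2, and of RPL19 in SH3. Losses named per gene below are those on leaving out a library, unless another setting is named.

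**Figure D3:**
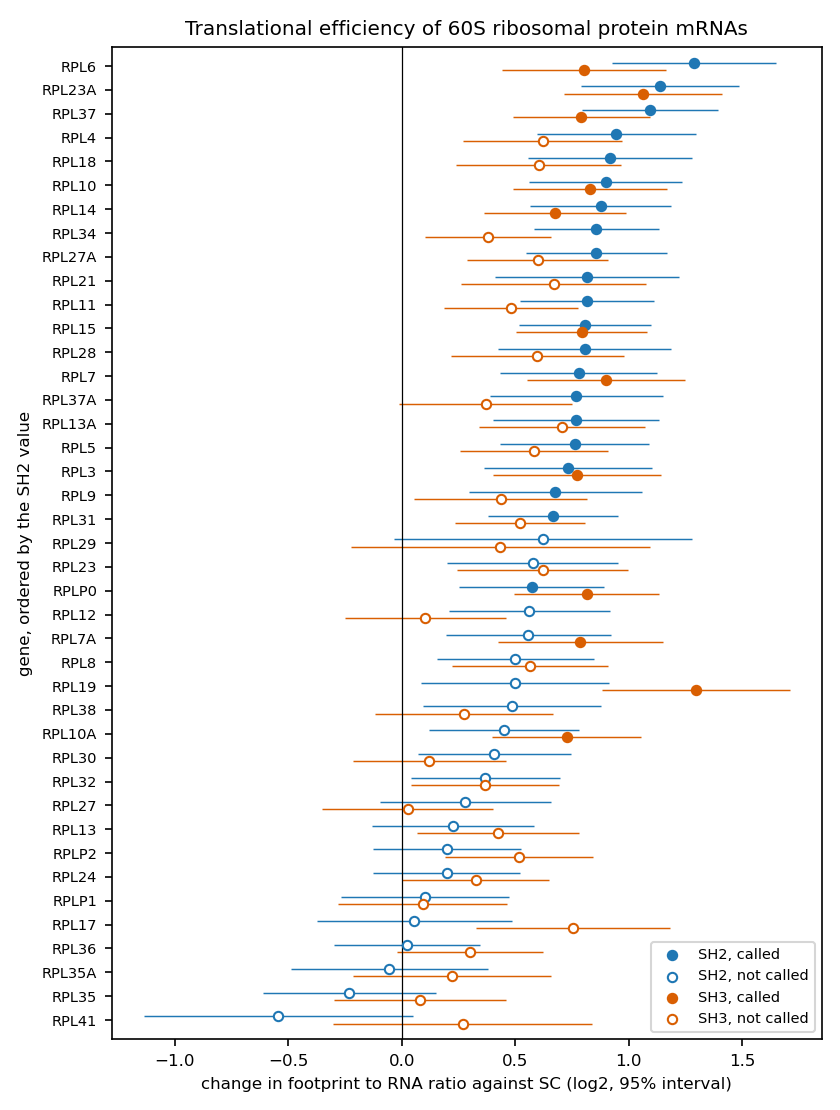
Change in the footprint to RNA ratio against SC (x axis, log2, with 95% intervals) for each of the 41 genes, ordered by the SH2 value. Filled points were called and open points were not. Estimates run from -0.54 (RPL41) to 1.29 (RPL6) in SH2 and from 0.026 (RPL27) to 1.30 (RPL19) in SH3.

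RPL6 had the highest change in translational efficiency in SH2. This protein lies on the solvent side of the subunit. Its RNA was at 2680.3, 2528 and 2886 CPM in SC, 1431, 1611 and 1373 in SH2 and 1962, 2173 and 1981 in SH3, and its footprints were at 1519.9, 1485 and 1274 CPM in SC, 1626, 1879 and 2232 in SH2 and 1671, 2117 and 1801 in SH3. In RNA the 3 groups did not overlap and SH2 was the lowest, while in footprints every hairpin library lay above every SC library. RNA changed by -0.87 ± 0.10 (SE, adjusted p = 4.88e-06 in edgeR) in SH2 and -0.40 ± 0.10 (SE, adjusted p = 0.00333 in edgeR) in SH3, and footprints by 0.42 ± 0.14 (SE, adjusted p = 0.0247 in edgeR) and 0.39 ± 0.14 (SE, adjusted p = 0.0454 in edgeR). The ratio rose by 1.29 ± 0.17 (SE, adjusted p = 0.000470 in edgeR) and 0.80 ± 0.17 (SE, adjusted p = 0.0335 in edgeR). Without SC replicate 3, the footprint calls of both hairpins and the SH3 ratio call were lost. The footprint call was also lost without SH2 replicate 3 in SH2 and without SH3 replicate 2 or 3 in SH3. The SH3 ratio call was lost also without any one SH3 replicate and with the block by lysate.

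RPL37 had the third highest ratio change in SH2, and RPL7 in SH3. RPL37, a zinc-binding protein bound to 5.8S ribosomal RNA, had log2 ratios of 0.38, 0.51 and 0.33 in SC, 1.31, 1.39 and 1.82 in SH2 and 1.14, 1.22 and 1.201 in SH3 in same-numbered libraries, and SC lay lowest in any pairing. It rose by 1.10 ± 0.14 (SE, adjusted p = 0.000442 in edgeR) in SH2 and 0.79 ± 0.14 (SE, adjusted p = 0.0122 in edgeR) in SH3. RPL7, a conserved RNA-binding protein of the subunit, had log2 ratios of 0.43, 0.16 and -0.11 in SC, 1.17, 0.77 and 0.93 in SH2 and 1.25, 1.05 and 0.85 in SH3, also without overlap of SC and hairpins in any pairing. It rose by 0.78 ± 0.17 (SE, adjusted p = 0.0127 in edgeR) and 0.90 ± 0.17 (SE, adjusted p = 0.0128 in edgeR). The SH3 calls of both genes, and the SH2 call of RPL7, were lost without SC replicate 3. Both lost the SH3 call also without SH3 replicate 1 or 2, RPL37 without SH3 replicate 3, and RPL7 lost the SH2 call without SH2 replicate 1 or 3. The block by lysate ended the SH3 call of both genes as well.

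RPL5 and RPL11 form the 5S ribonucleoprotein with 5S ribosomal RNA, which enters the subunit as 1 unit and, when free, binds MDM2. RPL5 RNA stood at 1296, 1408 and 1497 CPM in SC, 885, 948 and 824 in SH2 and 877, 964 and 918 in SH3. Every SC library lay above every hairpin library, and the RNA fell, with -0.66 ± 0.10 and -0.61 ± 0.10. RPL5 footprints, at 1681, 1316 and 1606 CPM in SC, 1748, 1663 and 1572 in SH2 and 1450.1, 1641 and 1408 in SH3, overlapped between groups and gave 0.11 ± 0.13 and -0.03 ± 0.13, neither called. RPL11 RNA was at 566, 646 and 674 CPM in SC, 437, 498 and 444 in SH2 and 521, 567 and 525 in SH3. It fell in SH2, with -0.45 ± 0.10 (SE, adjusted p = 0.00111 in edgeR), and was not called in SH3, at -0.23 ± 0.10 (SE, adjusted p = 0.0642 in edgeR). RPL11 footprints were at 849.6, 768 and 789.8 CPM in SC, 1099, 1064 and 963 in SH2 and 960.1, 976 and 921 in SH3, so each hairpin library lay above SC. They rose in SH2, by 0.38 ± 0.12 (SE, adjusted p = 0.0159 in edgeR), a call that was lost without SC replicate 3 (adjusted p = 0.0504), and had 0.25 ± 0.12 (SE, adjusted p = 0.113 in edgeR) in SH3. In translational efficiency both rose in SH2, RPL5 by 0.76 ± 0.16 and RPL11 by 0.82 ± 0.14. RPL5 lost that call without SH2 replicate 1 or 3. Neither was called in SH3, with 0.58 ± 0.16 and 0.48 ± 0.14.

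RPLP0 anchors the stalk that recruits the translational GTPases, RPLP1 and RPLP2 are the acidic proteins it carries, and RPL12 lies at its base. RPLP0 RNA, at 6756, 5649 and 6958 CPM in SC, 4413, 4633 and 4996 in SH2 and 4418, 5141 and 4804 in SH3, fell, with -0.46 ± 0.11 and -0.43 ± 0.11, and no SC library overlapped a hairpin library. Its footprints were at 714, 719 and 767 CPM in SC, 852, 762 and 777 in SH2 and 849, 1039 and 955 in SH3. They rose in SH3, by 0.37 ± 0.12 (SE, adjusted p = 0.0270 in edgeR), and in SH2 gave 0.12 ± 0.12 (SE, adjusted p = 0.446 in edgeR) with overlap. The SH3 footprint call was lost without SH3 replicate 2 or 3. Its ratio rose by 0.57 ± 0.15 (SE, adjusted p = 0.0397 in edgeR) and 0.82 ± 0.15 (SE, adjusted p = 0.0140 in edgeR). The SH2 call was lost without any one library but SC replicate 2, and with plain library totals, the block by lysate or only the groups compared. The SH3 call was lost without SC replicate 3, SH3 replicate 2 or SH3 replicate 3.

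The ratios of the acidic proteins were not called in either hairpin. RPLP1 RNA fell, with -0.34 ± 0.12 and -0.52 ± 0.12, the SH2 call being lost without SC replicate 3, SH2 replicate 1 or SH2 replicate 2. RPLP1 footprints were at 283, 246 and 242 CPM in SC, 235, 211 and 215 in SH2 and 171, 215 and 181 in SH3, with every hairpin library under SC. They fell in SH3, with -0.44 ± 0.13 (SE, adjusted p = 0.0176 in edgeR), a call lost without SC replicate 1, SH3 replicate 1 or SH3 replicate 3, and gave -0.22 ± 0.13 (SE, adjusted p = 0.185 in edgeR) in SH2. Its ratio gave 0.10 ± 0.18 and 0.09 ± 0.18. RPLP2 footprints were at 1864, 2134 and 2338 CPM in SC, 1739, 1577 and 1535 in SH2 and 1904, 2221 and 1924 in SH3, and here the SH2 libraries lay under both other groups. They fell in SH2, with -0.39 ± 0.13 (SE, adjusted p = 0.0219 in edgeR), which was not called without SC replicate 3, SH2 replicate 2 or SH2 replicate 3, and gave -0.07 ± 0.13 in SH3. RPLP2 RNA fell, with -0.60 ± 0.10 and -0.57 ± 0.10, and its ratio, with 0.20 ± 0.16 and 0.52 ± 0.16, was not called. RPL12 RNA fell in SH2, with -0.47 ± 0.11, and was not called in SH3, at -0.21 ± 0.11, and its ratio gave 0.56 ± 0.17 and 0.10 ± 0.17, not called.

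RPL3, RPL4 and RPL10 reach towards the peptidyl transferase centre, and RPL10 is among the proteins that join in the cytoplasm. RNA of all 3 fell in both hairpins, by 0.36 (RPL4 in SH3) to 0.82 (RPL3 in SH2) on the log2 scale. RPL4 in SH3 lost its RNA call without SC replicate 3. RPL3 RNA was at 1736, 1671 and 2121 CPM in SC, 979.8, 1047 and 1105 in SH2 and 991, 1219.6 and 1095 in SH3. Its footprints were at 1719, 1515 and 1908 CPM in SC, 1672, 1569.9 and 1649.5 in SH2 and 1467, 1949.6 and 1787 in SH3. RNA of SC lay above both hairpin groups, and the footprints of all groups overlapped. RPL4 footprints, at 838, 731 and 793 CPM in SC, 1169, 917 and 1104 in SH2 and 827, 1044 and 933 in SH3, rose in SH2 by 0.43 ± 0.14 (SE, adjusted p = 0.0161 in edgeR), which was not called without SH2 replicate 1, and gave 0.25 ± 0.14 in SH3. RPL10 footprints gave 0.22 ± 0.13 (SE, adjusted p = 0.168 in edgeR) and 0.32 ± 0.13 (SE, adjusted p = 0.0619 in edgeR), not called, with each hairpin library above SC at 1159, 1321 and 1222 CPM in SC, 1590.0, 1379 and 1353 in SH2 and 1399.7, 1741 and 1476 in SH3. The ratio rose for all 3 in SH2, by 0.74 ± 0.18 for RPL3, 0.95 ± 0.17 for RPL4 and 0.90 ± 0.16 for RPL10. In SH3 it rose for RPL3, by 0.77 ± 0.18 (SE, adjusted p = 0.0469 in edgeR), and for RPL10, by 0.83 ± 0.16 (SE, adjusted p = 0.0163 in edgeR), and RPL4 was not called, at 0.62 ± 0.17 (SE, adjusted p = 0.0966 in edgeR). Both SH3 calls were lost without SC replicate 3 or any one SH3 replicate, and that of RPL3 also without SC replicate 2. The SH3 call of RPL3 was lost also with plain library totals or only the groups compared, and that of RPL10 with the block by lysate. RPL3 in SH2 lost its call without SC replicate 3 or any one SH2 replicate.

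RPL10A is the protein of the L1 stalk, over which spent transfer RNA leaves the ribosome. Its RNA was at 1028, 1094 and 1194 CPM in SC, 979.5, 932 and 958 in SH2 and 834, 1033 and 919.8 in SH3, with overlap of SC and SH3 and SH2 under SC. It was not called in SH2, at -0.21 ± 0.10 (SE, adjusted p = 0.0854 in edgeR), and fell in SH3, at -0.25 ± 0.10 (SE, adjusted p = 0.0480 in edgeR), a call that was lost without SC replicate 2 or 3 or SH3 replicate 1 or 3. Footprints of RPL10A were at 1249.8, 1171 and 1079 CPM in SC, 1517, 1279 and 1379 in SH2 and 1469, 1819 and 1535 in SH3, and all hairpin libraries lay above SC. They rose in SH3, by 0.46 ± 0.13 (SE, adjusted p = 0.0106 in edgeR), which was lost without SC replicate 3 or SH3 replicate 2, and gave 0.25 ± 0.13 (SE, adjusted p = 0.119 in edgeR) in SH2. The ratio rose in SH3, by 0.73 ± 0.16 (SE, adjusted p = 0.0346 in edgeR), but was not called without SC replicate 2 or 3 or any one SH3 replicate. It was also not called with plain library totals, the block by lysate or only the groups compared. The SH3 RNA call was lost also with plain library totals or no filter on low counts.

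RPL17, RPL19, RPL23A, RPL31 and RPL35 surround the mouth of the exit tunnel, where RPL23A and RPL35 form the docking site of nascent-chain factors such as the signal recognition particle. RPL19 had the highest footprint and ratio changes of the members in SH3. Its RNA was at 1364, 1272 and 1479 CPM in SC, 1073, 1126 and 1223 in SH2 and 1035, 1295 and 1172 in SH3, with SC and SH3 overlapping, and its footprints were at 962, 1006 and 978 CPM in SC, 1392, 1071 and 1027 in SH2 and 1942, 2523 and 1630.1 in SH3. The SH3 footprint libraries lay above all others and the SC libraries below all others. Footprints rose in SH3 to 2.07-fold of SC, a log2 change of 1.05 ± 0.16 (SE, adjusted p = 0.000156 in edgeR), and gave 0.24 ± 0.16 (SE, adjusted p = 0.227 in edgeR) in SH2. RNA gave -0.23 ± 0.11 (SE, adjusted p = 0.0773 in edgeR) in SH3, not called, and -0.27 ± 0.11 (SE, adjusted p = 0.0404 in edgeR) in SH2, a call that was lost without SC replicate 3, SH2 replicate 1 or SH2 replicate 2. The ratio rose by 1.30 ± 0.20 (SE, adjusted p = 0.00274 in edgeR) in SH3, with an adjusted p of 7.16e-07 to 0.0408 over the alternatives, and had 0.50 ± 0.20 (SE, adjusted p = 0.176 in edgeR) in SH2. Between hairpins, footprints of RPL19 were lower in SH2, with a log2 difference of -0.80 ± 0.16 (SE, adjusted p = 0.00202 in edgeR).

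RPL23A had the second highest ratio change in each hairpin. RPL23A RNA was at 894, 832 and 949 CPM in SC, 442, 487 and 430.0 in SH2 and 540.0, 579.8 and 529.7 in SH3. Its footprints were at 743, 803 and 715 CPM in SC, 964, 732 and 849 in SH2 and 899.8, 1133 and 851 in SH3. RNA fell without overlap, while footprints of SH3 lay above SC and those of SH2 overlapped it. RNA changed by -0.98 ± 0.09 (SE, adjusted p = 1.12e-06 in edgeR) and -0.70 ± 0.09 (SE, adjusted p = 3.41e-05 in edgeR), and the ratio by 1.14 ± 0.17 (SE, adjusted p = 0.000869 in edgeR) and 1.06 ± 0.17 (SE, adjusted p = 0.00297 in edgeR). Its footprints gave 0.17 ± 0.14 (SE, adjusted p = 0.350 in edgeR) and 0.35 ± 0.14 (SE, adjusted p = 0.0639 in edgeR), neither called. Without SC replicate 3 the SH3 ratio had an adjusted p of 0.0505.

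RPL35 and RPL17 had low footprints in SH2. RPL35 footprints were at 1613, 1223 and 1608 CPM in SC, 771, 711 and 906 in SH2 and 1062, 1167 and 1249 in SH3, so SH2 lay under both other groups, and SH3 overlapped SC. They fell in SH2, with -0.90 ± 0.14 (SE, adjusted p = 0.000135 in edgeR), and gave -0.35 ± 0.14 (SE, adjusted p = 0.0622 in edgeR) in SH3. RPL35 RNA fell, with -0.68 ± 0.11 and -0.42 ± 0.11, and its ratio, -0.23 ± 0.18 and 0.08 ± 0.18, was not called. RPL17 footprints rest on 153 to 616 counts per library and stood at 100.0, 80.9 and 68.9 CPM in SC, 68.5, 55.9 and 49.5 in SH2 and 106, 102 and 81.7 in SH3. The SH2 libraries lay under both other groups and fell, with -0.53 ± 0.17 (SE, adjusted p = 0.0218 in edgeR), a call that was lost without SC replicate 1, SH2 replicate 2 or SH2 replicate 3, and gave 0.21 ± 0.17 in SH3. A readthrough gene, RPL17-C18orf32, is also in the table and shares sequence with RPL17, so counts of RPL17 are uncertain. RPL31 RNA, at 1405, 1377 and 1534 CPM in SC, 711, 776 and 693 in SH2 and 802, 793 and 773 in SH3, fell, with -0.99 ± 0.09 and -0.87 ± 0.09 without overlap. RPL31 footprints, at 2183, 1843 and 1951 CPM in SC, 1552, 1619 and 1662 in SH2 and 1647, 1542 and 1483 in SH3, lay under SC in each hairpin library and fell, with -0.31 ± 0.12 (SE, adjusted p = 0.0451 in edgeR) and -0.36 ± 0.12 (SE, adjusted p = 0.0276 in edgeR). Both footprint calls were lost without SC replicate 1 or 3, and in SH2 without any one SH2 replicate, in SH3 without SH3 replicate 2 or 3. Both were lost also with plain library totals or only the groups compared, and the SH2 call with DESeq2's size factors or no filter on low counts. Its ratio rose in SH2, by 0.67 ± 0.14 (SE, adjusted p = 0.0102 in edgeR), which was lost without SC replicate 3 or SH2 replicate 3, and gave 0.52 ± 0.14 (SE, adjusted p = 0.0877 in edgeR) in SH3.

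RPL24 joins late, in the cytoplasm, where it takes the place of RSL24D1, and it bridges to the small subunit. RPL24 RNA fell in SH2, with -0.49 ± 0.11 (SE, adjusted p = 0.00135 in edgeR), and gave -0.26 ± 0.11 (SE, adjusted p = 0.0515 in edgeR) in SH3. Its footprints, at 1215, 1317 and 1291 CPM in SC, 1167, 917 and 1074 in SH2 and 1269.8, 1408 and 1275 in SH3, were lowest in SH2, with -0.28 ± 0.12 (SE, adjusted p = 0.0839 in edgeR), and overlapped between SC and SH3. RPL23 lies at the face between the subunits and, when free, binds MDM2. RPL23 RNA fell, with -0.69 ± 0.10 and -0.67 ± 0.10, while its footprints (-0.10 ± 0.15 and -0.06 ± 0.15) and ratio (0.58 ± 0.18 and 0.62 ± 0.18) were not called. RPL13A is known also for a role outside the ribosome, in the complex that silences inflammatory mRNAs after interferon gamma. Footprints of RPL13A were at 875, 788 and 835 CPM in SC, 1146, 1047 and 1257 in SH2 and 832, 919 and 975 in SH3. The SH2 libraries lay above both other groups and rose by 0.47 ± 0.12 (SE, adjusted p = 0.00637 in edgeR), while SH3 gave 0.13 ± 0.12. RPL13A RNA fell, with -0.32 ± 0.13 (SE, adjusted p = 0.0449 in edgeR) in SH2, which was lost without SC replicate 1 or 3 or SH2 replicate 1 or 2, and -0.57 ± 0.13 (SE, adjusted p = 0.00198 in edgeR) in SH3. Its ratio rose in SH2 by 0.77 ± 0.18 (SE, adjusted p = 0.0188 in edgeR), a call that was lost without SC replicate 3 or SH2 replicate 1 or 3.

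RPL38 and RPL41 had among the deepest footprint falls in SH2. RPL38 footprints were at 789, 937 and 913 CPM in SC, 612, 411 and 457 in SH2 and 657, 658 and 627 in SH3, with SC highest, SH2 lowest and no overlap. They fell, with -0.83 ± 0.15 (SE, adjusted p = 0.000338 in edgeR) in SH2 and -0.44 ± 0.15 (SE, adjusted p = 0.0282 in edgeR) in SH3, the SH3 call being lost without SC replicate 2 or 3 or any one SH3 replicate. RPL41, a very short basic peptide at the border of both subunits, rests on 29 to 182 footprint counts per library. Its footprints were at 29.5, 14.7 and 18.1 CPM in SC, 12.2, 8.16 and 9.39 in SH2 and 17.0, 15.8 and 20.7 in SH3, with SH2 under both other groups and SH3 within the range of SC. They fell in SH2, with -1.13 ± 0.27 (SE, adjusted p = 0.00289 in edgeR), and gave -0.26 ± 0.26 (SE, adjusted p = 0.457 in edgeR) in SH3. RPL41 RNA fell, with -0.63 ± 0.11 and -0.54 ± 0.11. Its ratio was the lowest of the members in SH2, at -0.54 ± 0.29 (SE, adjusted p = 0.324 in edgeR), and had 0.27 ± 0.28 (SE, adjusted p = 0.748 in edgeR) in SH3, neither called.

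RPL18, RPL34, RPL37A and RPL27, conserved proteins of the subunit's body, complete the members with the highest or lowest footprint changes. RPL18 footprints were at 415, 493 and 433 CPM in SC, 659, 600.5 and 705 in SH2 and 459.5, 542 and 597 in SH3, with SH2 above SC and SH3 overlapping SC. They rose in SH2 by 0.55 ± 0.13 (SE, adjusted p = 0.00364 in edgeR) and gave 0.26 ± 0.14 (SE, adjusted p = 0.151 in edgeR) in SH3. RPL34 footprints were at 485, 468 and 511 CPM in SC, 498, 486 and 488 in SH2 and 328, 343 and 334 in SH3, nearly level in SC and SH2 and lower in each SH3 library. They fell in SH3, with -0.54 ± 0.12 (SE, adjusted p = 0.00201 in edgeR), and gave 0.01 ± 0.12 in SH2, where the ratio rose, by 0.86 ± 0.13 (SE, adjusted p = 0.00137 in edgeR). RPL37A footprints, at 1229, 1237 and 1574 CPM in SC, 1353, 1171 and 1353 in SH2 and 795, 999 and 1013 in SH3, also lay lowest in SH3 and fell there, with -0.52 ± 0.14 (SE, adjusted p = 0.00903 in edgeR), a call that was lost without SC replicate 3 or SH3 replicate 1. RPL27 footprints were at 1296, 907 and 1080.4 CPM in SC, 836, 701 and 846 in SH2 and 755, 710.1 and 870.1 in SH3, with each hairpin library under SC. They fell, with -0.46 ± 0.15 (SE, adjusted p = 0.0177 in edgeR) and -0.49 ± 0.15 (SE, adjusted p = 0.0162 in edgeR), and the calls were lost without SC replicate 1 and also without SH2 replicate 2 in SH2 and SH3 replicate 1 or 2 in SH3. The RPL27 ratio was the lowest of the members in SH3, at 0.03 ± 0.18.

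**Figure D4:**
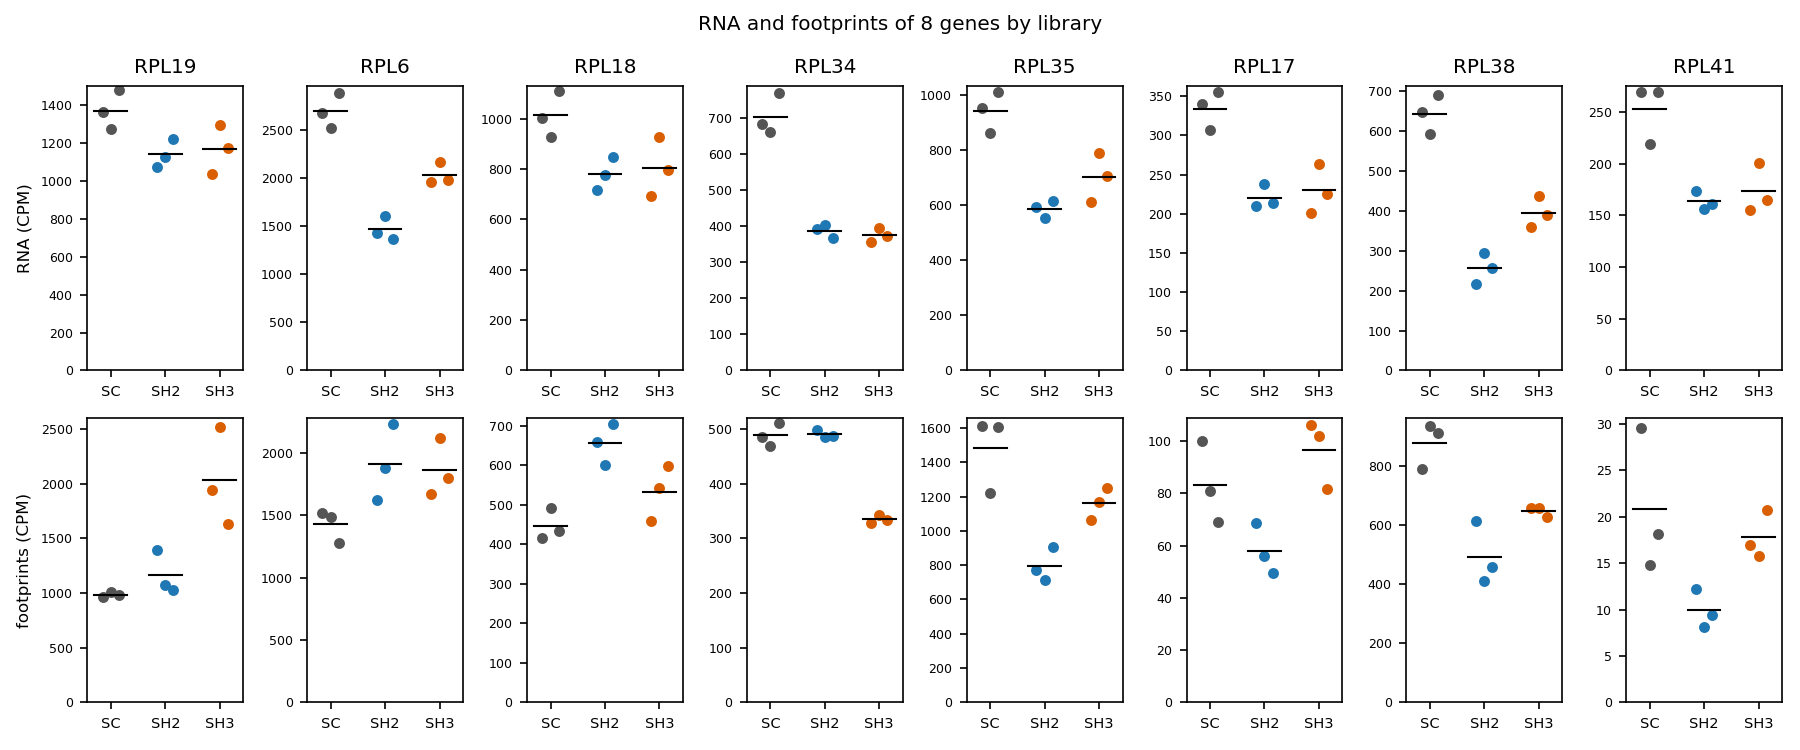
RNA (top) and footprint (bottom) levels in CPM (y axes, from 0) of 8 genes in each library, by treatment. Points are libraries and lines are group means. RPL19 and RPL34 footprints separate SH3 from the other treatments. RPL17, RPL18, RPL35, RPL38 and RPL41 footprints separate SH2, narrowly so for RPL17, RPL18 and RPL38. RNA of each gene has a lower mean in both hairpin groups than in SC.

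The hairpins were also compared directly. In RNA, 4 members were lower in SH2 than in SH3 and 0 higher (0 also at an unadjusted p under 0.05 and by DESeq2), beside 20.4% lower and 18.9% higher over all genes tested. These were RPL38 (-0.63 ± 0.12), RPL29 (-0.57 ± 0.10), RPL6 (-0.47 ± 0.10) and RPL23A (-0.28 ± 0.09), the last not called without SH2 replicate 1 or 3 or any one SH3 replicate. In footprints, 2 members were higher and 4 lower in SH2, beside 12.1% and 11.6% over all genes tested. RPL34 was higher by 0.55 ± 0.12 (SE, adjusted p = 0.00310 in edgeR) and RPL37A by 0.47 ± 0.14 (SE, adjusted p = 0.0255 in edgeR). Lower in SH2 were RPL19 as given above, RPL41 with -0.87 ± 0.29 (SE, adjusted p = 0.0370 in edgeR), RPL17 with -0.73 ± 0.18 (SE, adjusted p = 0.00705 in edgeR) and RPL35 with -0.54 ± 0.14 (SE, adjusted p = 0.0116 in edgeR). The differences of RPL17, RPL19 and RPL34 held under each of the 13 alternatives. RPL35 lost its call without SH2 replicate 2 or SH3 replicate 3, RPL37A without SH2 replicate 1 or 3 or SH3 replicate 1 or 2, and RPL41 without any one library but SH2 replicate 1. In translational efficiency 0 members differed between hairpins by edgeR, beside 0% higher and 0.0160% lower over all genes tested. At an unadjusted p under 0.05, 6 were higher and 3 lower in SH2, and the DESeq2 Wald test called 1 higher and 2 lower. No share over all genes was taken at that unadjusted p or for DESeq2, so these counts have none beside them. The intervals of the difference stay wide: for RPL19 it was -1.21 to -0.38 and for RPL34 0.20 to 0.76.

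Footprints per RNA varied widely among the members. In SC the mean log2 ratio ran from -3.66 for RPL41 to 1.28 for RPLP2, with a median of -0.24 and an SD over members of 1.08. The median was 0.41 in SH2 and 0.35 in SH3, with SDs of 1.19 and 1.10. RPL41 was the lowest in each treatment. The log2 ratios of RPLP0 were -3.24, -2.97 and -3.18 in SC, -2.37, -2.61 and -2.68 in SH2 and -2.38, -2.31 and -2.33 in SH3, far under those of RPLP2, at 1.06, 1.45 and 1.32 in SC, 1.58, 1.53 and 1.36 in SH2 and 1.81, 1.79 and 1.75 in SH3, the gene of its stalk partner. The ratio cancels the length of a coding region only if both library kinds count the same bases, which the sources used here do not state, so the order of genes in it is a description.

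Other genes of the translation machinery were described by counts and medians from the same fits. In RNA, 28 of 30 small-subunit proteins were called lower in each hairpin (medians -0.55 in SH2 and -0.61 in SH3). The other TOP mRNAs, among them elongation and initiation factors, had 14 and 13 of 17 tested called lower. The 13 chaperones, placeholders and loading factors of large-subunit proteins, which escort them to the particle or hold their sites, had 5 called higher and 2 lower after SH2, and 7 and 1 after SH3. In translational efficiency the medians were 0.39 and 0.44 for the small-subunit proteins (10 and 5 of 30 called higher), 0.47 and 0.44 for the other TOP mRNAs (8 and 3 of 18), and -0.15 and -0.081 for the chaperones (0 and 0 of 13). Large-subunit genes outside the members, those with a paralog or fused to ubiquitin, had -0.0089 and 0.22 (2 and 0 of 12 tested). The members' own medians stand above at 0.62 and 0.58.

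**Figure D5:**
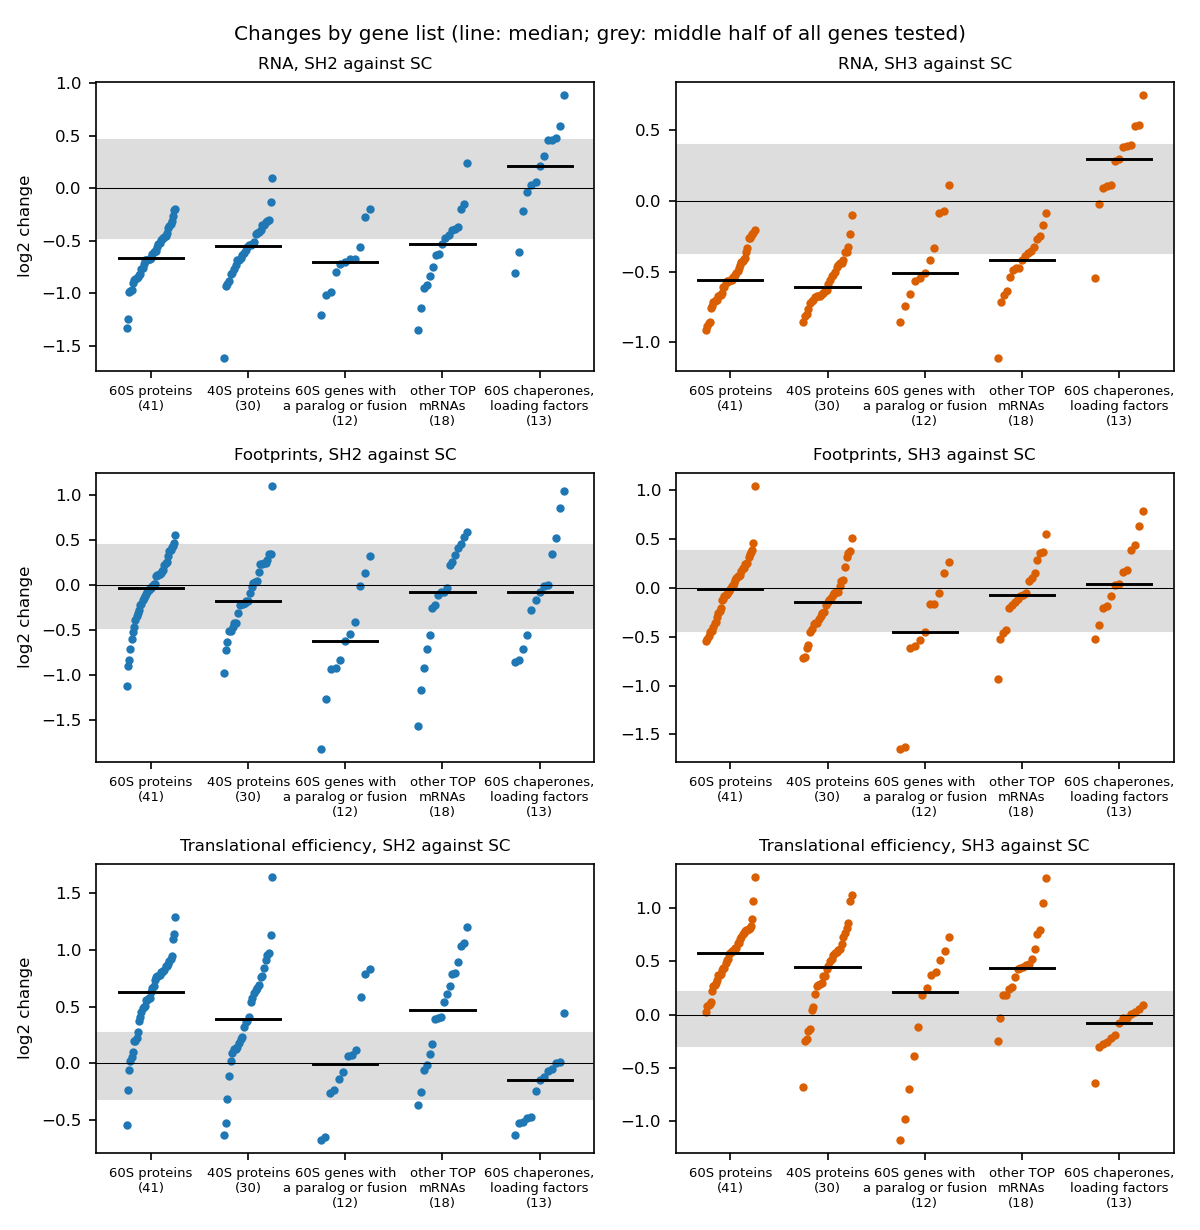
Log2 changes against SC (y axes) in RNA, footprints and translational efficiency (top to bottom) for SH2 (left) and SH3 (right), by gene list. Points are genes, black lines are medians and the grey band holds the middle 50% of all genes tested. In translational efficiency the 41 members have medians of 0.62 and 0.58, and the chaperones -0.15 and -0.081.

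Fibrillarin acts with box C/D snoRNAs, several of which lie in introns of these genes. By RefSeq coordinates, 11 members contain a box C/D snoRNA (RPL3, RPL4, RPL5, RPL7A, RPL13, RPL13A, RPL17, RPL21, RPL23A, RPL28 and RPL37), 7 others a box H/ACA snoRNA and 23 neither. RPL3, RPL4, RPL7A, RPL13A and RPL23A hold 4 each. Containment was read from gene bounds, without strand. In RNA, 11 of 11 box C/D hosts were called lower in both hairpins, with medians of -0.61 and -0.57, and the 23 genes without a snoRNA had -0.67 and -0.52 (21 and 20 called lower). In translational efficiency the hosts of box C/D snoRNAs had medians of 0.77 and 0.71 (8 and 4 called higher), hosts of box H/ACA snoRNAs 0.56 and 0.52 (2 and 1 of 7), and the others 0.57 and 0.44 (11 and 7 of 23). No test of the differences between these groups was run. The 14 members with a start run of 8 or more had ratio medians of 0.57 and 0.56, and the 20 with a shorter run or none 0.65 and 0.46, so their order differs between hairpins.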

How the data were processed

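The deposited table holds raw counts per gene for 18 libraries, 3 replicates in each of 6 groups. Its further columns are the authors' normalized signal (counts divided by a DESeq2 size factor, per the file headers), log2 fold changes and p-values of the authors' DESeq2 comparisons. These deposited columns were not used: the log2 values of the measure headed RD are the same for SH2 and SH3 in 17017 of 17017 genes. The submitters' processing notes name Bowtie 1.2.2 and DESeq2. Build, annotation, strand setting and the counting tool are not given in the sources used here.

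Counts were tested with edgeR 4.0.16 (R 4.3.3): filterByExpr (minimum count 10), TMM scaling, glmQLFit and glmQLFTest, two-sided, Benjamini-Hochberg adjustment over all genes tested, called under 0.05. RNA and footprints had 1 fit each of 9 libraries, and translational efficiency 1 interaction fit of 18. The SE is the absolute log2 change divided by the square root of F. The script was tested on simulated counts. Alternatives were DESeq2 1.42.0 (Wald test), its size factors, plain totals, TMM without ribosomal protein genes, no filter, only the groups compared, a replicate block and leaving out each library. The common biological coefficient of variation was 11.6% in RNA and 15.1% in footprints. Replicate libraries differed beyond counting noise, with chi-square values per degree of freedom of 3.38 to 56.3, and each was used as its own sample.

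Members and lists were chosen with earlier results of these data known. Named genes are the 3 highest and 3 lowest members per measure and hairpin, members fixed by role, and those called between hairpins. Other members are named where a set of calls is spelled out, a choice made after their values were seen. The main fits have no block. Deviations of same-numbered libraries from their group means correlated over 0.1 in each pair of SC and SH2 (0.30 to 0.36 in RNA and 0.25 to 0.30 in footprints), so these numbers pair. With SH3 the correlations ran from -0.083 to 0.43 in RNA and from -0.12 to 0.31 in footprints. Same-numbered RNA and footprint libraries correlated at 0.21 to 0.42 in SH3, but from -0.49 to 0.26 in SC and from -0.31 to 0.50 in SH2. Coding lengths were not used here: levels in RNA or in footprints are not compared between genes, and the order of genes in footprints per RNA is a description.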

Additional observations from a re-analysis of the deposited data

How the results depend on the processing

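Counts of members called lower in RNA kept within 1.5 times of 39 in SH2 and 37 in SH3 under each of the 13 alternatives, and the medians of the members kept their sign in RNA and in translational efficiency against SC. Plain library totals gave an RNA median of -0.57 in SH2, 7 members higher in SH3 footprints (4 with TMM) and 7 lower in SH2 than in SH3 footprints (4 with TMM). They also ended calls, among them those of RPL13A, RPL19 and RPLP1 in SH2 RNA and of RPL38 in SH3 footprints. The DESeq2 Wald test called 26 members higher in SH3 translational efficiency (12 by edgeR), and 1 higher and 2 lower between the hairpins. With no filter on low counts, 1 was called lower in translational efficiency between the hairpins. Shares over all genes were not taken for these alternatives. Same-numbered libraries of SC and SH2 deviated together within RNA and within footprints, and there the replicate block changed no call but that of RPL29 footprints. The pairs that include SH3, and RNA with footprint libraries in SC and SH2, did not all do so. With the replicate block 7 members were lower in SH2 than in SH3 RNA (4 without it) and 4 higher in footprints (2 without it), while the block by lysate left 6 higher in SH3 translational efficiency. The block moved no other count by over 1.5 times.

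Leaving out 1 library gave 4 to 10 members lower in SH2 footprints, 3 to 8 lower and 1 to 5 higher in SH3 footprints, and 2 to 5 lower and 1 to 2 higher in footprints between hairpins. In translational efficiency it gave 11 to 21 higher in SH2, with a median of 0.49 to 0.70, and 1 to 19 higher in SH3. Between hairpins the median ran from -0.11 to 0.016 in RNA and from -0.042 to 0.12 in translational efficiency. The cause of these moves was not tested, apart from the smaller number of libraries. Of 224 values of members that were not called, 59 changed sign and 46 were called under at least 1 alternative, among them RPL11 and RPL24 in SH3 RNA. The split of members by coding length was not run. The shallow footprints of RPL41 and RPL17 limit what can be read from them.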
